A study of Mus musculus with 14 samples.

Results

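The genes described here are 59 protein-coding genes whose mRNA was more abundant in ovarian tumor cells without intact FAK (FAK KO) than in cells with FAK or with an added active β-catenin. They were chosen on the group means of the expression values (FPKM, which scales fragments by gene length and library size) plus 0.1. A gene was kept when its mean in FAK KO cells was above 1 FPKM and at least 2 times its mean in each of parental KMF, FAK-WT and β-catenin ΔGSK cells. Of 10842 protein-coding genes above 1 FPKM in FAK KO cells, these 59 passed, which is 0.544%, and the table holds 22026 protein-coding genes among 35275 genes in all. The levels in those 4 lines therefore describe the choice and carry no test. The FAK-R454 libraries took no part in it and are the independent readout.

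KMF is a mouse ovarian epithelial tumor cell line, recovered from the ascites of C57Bl6 mice bearing ID8 tumors. FAK KO cells are 1 clone, KT13, in which both guides of a CRISPR/Cas9 pair targeted Ptk2, the gene of FAK. FAK-WT cells are KT13 cells given lentiviral GFP-FAK, and FAK-R454 cells are KT13 cells given a lentiviral GFP-FAK mutant without kinase activity. β-catenin ΔGSK cells are KT13 cells given a retroviral β-catenin that lacks the sites GSK3β phosphorylates, so they are also without intact FAK. The 3 transduced lines were drug selected and enriched by flow cytometry. FAK KO cells are thus the 1 KT13 line without a viral construct, so that the construct and its transduction cannot be told apart in comparisons with FAK KO cells. All were grown in suspension as tumorspheres for 5 days, and 3 samples of each line and 2 samples of FAK-R454 cells were analysed. Nothing in the labels says that the samples of a line came from separate derivations, so p-values measure the spread between RNA samples of 1 line.

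FAK is a cytoplasmic tyrosine kinase that is activated by integrins at adhesions and also acts as a scaffold for other proteins. β-catenin joins cadherins to actin at the membrane and, when it is not degraded, enters the nucleus and drives transcription with TCF and LEF factors. Among the genes in question are trypsins, known as digestive proteases of the pancreas, and gel-forming mucins, which are secreted by the gut and the airway.

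The libraries held 25390558 to 35289859 fragments on genes. Ptk2 mRNA was not absent from FAK KO cells, at 17.6 to 20.5 FPKM in the 3 samples, and an edited transcript is counted like an intact one. It was 59.2 and 65.5 FPKM in the FAK-R454 samples and 42.3, 42.5 and 45.4 FPKM in the FAK-WT samples. The part of this difference in the results was not tested. Axin2, a standard target of β-catenin and TCF, was at 0.822 ± 0.0146 FPKM in FAK KO cells and 0.773 ± 0.0176 in FAK-R454 cells (SD, n = 3 and 2), against 109.6 ± 6.69 in β-catenin ΔGSK cells (SD, n = 3). Its level was 5.88 ± 0.301 FPKM in KMF and 2.05 ± 0.0355 in FAK-WT cells (SD, n = 3 each). The FAK KO and FAK-R454 means were thus below those of every other line. Endogenous Ctnnb1, the β-catenin gene, was still at 145 ± 4.63 FPKM in FAK KO cells (SD, n = 3), so the libraries without FAK were not without β-catenin mRNA. Markers of the surface epithelium Krt8, Krt18, Krt19, Msln and Wt1 were above 40 FPKM in every sample, while Epcam, Cdh1, Pax8 and Krt7 were below 1 FPKM in every sample. The mesothelial markers Upk3b and Lrrn4 differed in the readout line, with means of 31.6 and 1.14 FPKM in FAK-R454, 4.03 and 0.262 in FAK KO and 7.46 and 0.332 in FAK-WT cells, and their part in the results was not tested. The mesenchymal markers Col1a1, Col3a1 and Fn1 had means of 1.33, 7.32 and 55.7 FPKM in FAK KO cells. Their means were 10.1, 25.2 and 163 FPKM in FAK-R454 and 9.12, 37.6 and 192 in FAK-WT cells. Vim and Cdh2 were at 956 and 26.0 FPKM in FAK KO and 948 and 24.4 in FAK-R454 cells. The mesenchymal markers Col1a2 and Pdgfrb were at most 0.0159 and 0.0556 FPKM in any sample. The endothelial marker Tek was at 17.4 FPKM in FAK KO and 16.6 in FAK-R454 cells. The endothelial markers Cdh5, Kdr and Vwf were at most 0.0432, 0.00574 and 0.101 FPKM in any sample. Pecam1, also endothelial, was at 1.02 FPKM in FAK KO and 0.851 in FAK-R454 cells. The part of these markers in the results was not tested either. Among leukocyte markers Cd3e was 0 in every library and Ptprc was at most 0.00759 FPKM, while Cd68 was above 1 FPKM.

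The genes spanned a wide range of level in FAK KO cells, from 1.04 to 482 FPKM with a median of 7.18. In bulk RNA, more cells of 1 kind and more mRNA per cell cannot be told apart. Their median fold in FAK KO cells was 4.13 over KMF, 3.00 over FAK-WT and 6.47 over β-catenin ΔGSK cells. The highest of these 3 lines was FAK-WT for 31 genes, KMF for 14 and β-catenin ΔGSK for 14. β-catenin ΔGSK cells had the lowest mean of all 5 lines for 33 of the 59. In 58 of the genes every FAK KO sample lay above every sample of KMF, FAK-WT and β-catenin ΔGSK cells, a pattern that the rule favours and that 11.9% of all 12256 genes tested showed. The exception was Gm10972, which had 0, 1.89 and 1.32 FPKM in the FAK KO samples. With a length of 81 bases, it had only 0, 4 and 3 fragments there and at most 2 in any other library, so its place among the 59 rests on very few fragments.

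**Figure D1:**
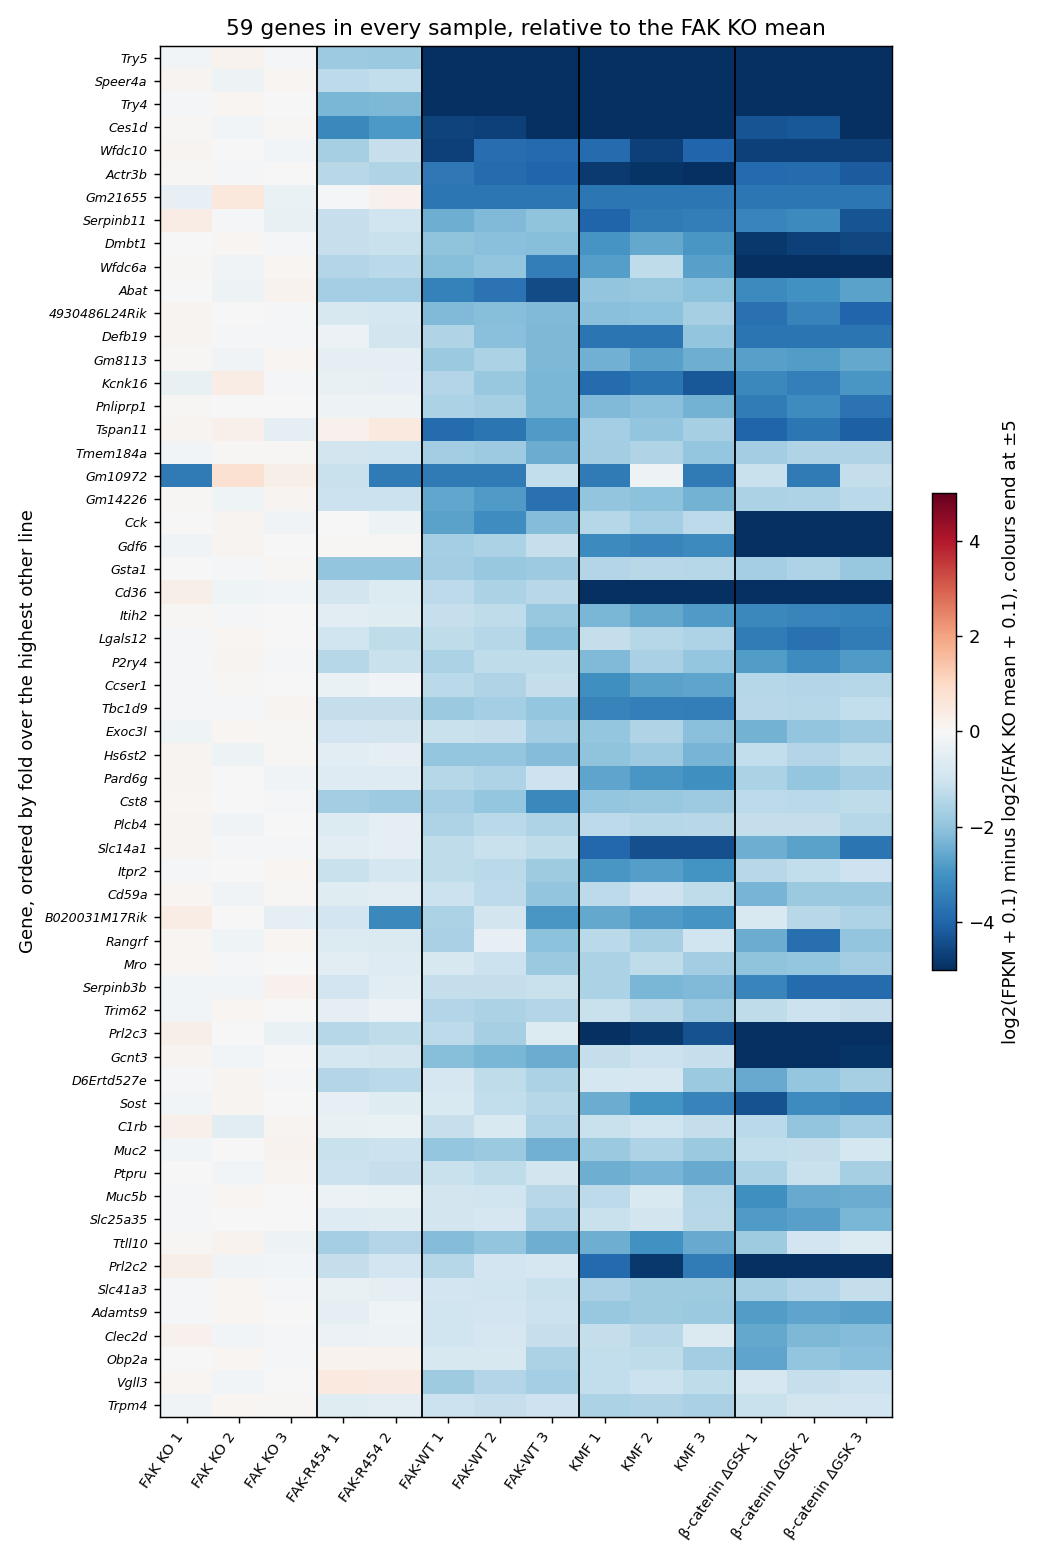
Each row is 1 of the 59 genes and each column 1 of the 14 samples, and colour gives log2(FPKM + 0.1) minus the same value of the FAK KO mean (blue lower, red higher, colours end at 5 log2 units). The FAK-R454 columns are paler than those of FAK-WT, KMF and β-catenin ΔGSK cells for most genes, and the β-catenin ΔGSK columns reach the colour limit for Try5, Try4, Speer4a, Cck, Cd36 and others, as the KMF columns do for Try5, Try4, Speer4a, Cd36 and Ces1d.

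By the ratio of FAK KO to the highest other line, both plus 0.1 FPKM, Try5 stood first at 95.7, followed by Speer4a at 91.5 and Try4 at 44.3. Try5 and Try4 are neighbouring trypsin genes. Try5 (trypsin 5, a digestive serine protease, ENSMUSG00000036938, chromosome 6, 41311233 to 41316841) was at 442, 538 and 467 FPKM in the FAK KO samples. It was at 0.773, 0.939 and 1.34 FPKM in KMF, at 4.73, 4.65 and 5.45 FPKM in FAK-WT, and listed at 0 in all 3 β-catenin ΔGSK samples. The FAK-R454 samples had 138 and 132 FPKM, above every sample of those 3 lines and below every FAK KO sample. A count of 3 fragments over the β-catenin ΔGSK group, the limit that a count of 0 allows, would put FAK KO cells at least 10676-fold higher. Try4 (trypsin 4, chromosome 6, 41302269 to 41305532) had 76.3, 87.2 and 83.7 FPKM in FAK KO, 16.9 and 17.3 in FAK-R454, and 2.34, 1.91 and 1.03 in FAK-WT samples. In KMF it did not exceed 0.0859 FPKM, and it too was at 0 in the β-catenin ΔGSK samples, at least 1823-fold below FAK KO cells. These limits and all intervals from counts cover counting error only. Of the 100-base stretches in their transcripts, 22.5% for Try5 and 30.2% for Try4 also occur in another gene, mostly in each other, so the split of fragments between the pair is uncertain.

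Speer4a, a member of a multicopy family known from spermatogenesis, and Actr3b, a variant of the Arp3 subunit of the actin-nucleating Arp2/3 complex, lie close together on chromosome 5. Speer4a had 29.5, 22.0 and 28.0 FPKM in FAK KO samples and 10.6 and 11.2 in FAK-R454 samples, and at most 0.229 FPKM in any sample of KMF, FAK-WT or β-catenin ΔGSK cells. Actr3b (chromosome 5, 25759997 to 25850342) had 76.5, 71.8 and 74.3 FPKM in FAK KO, 28.7 and 26.0 in FAK-R454, and between 2.06 and 6.13 in the samples of the other 3 lines. For both genes the FAK-R454 samples stood alone between the FAK KO samples and the rest. Speer4a shares 21.6% of its 100-base stretches with other genes.

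Ces1d, a carboxylesterase that hydrolyses lipid esters, kept least of its level in FAK-R454 cells. Its FAK KO samples had 6.50, 5.61 and 6.38 FPKM, its FAK-R454 samples 0.575 and 0.756, and no sample of the other 3 lines exceeded 0.236. Serpinb11, a clade B serpin, had 42.1, 30.8 and 25.1 FPKM in FAK KO and 14.5 and 16.4 in FAK-R454 samples, against 1.53 to 8.07 in the other lines. Dmbt1, a secreted scavenger receptor protein of mucosal surfaces, had 22.0, 24.0 and 20.9 FPKM in FAK KO and 9.93 and 10.2 in FAK-R454 samples, with 5.06 to 5.45 in FAK-WT and 0.683 to 0.866 in β-catenin ΔGSK samples. In each of these genes the FAK-R454 samples again lay between, without overlap.

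**Figure D2:**
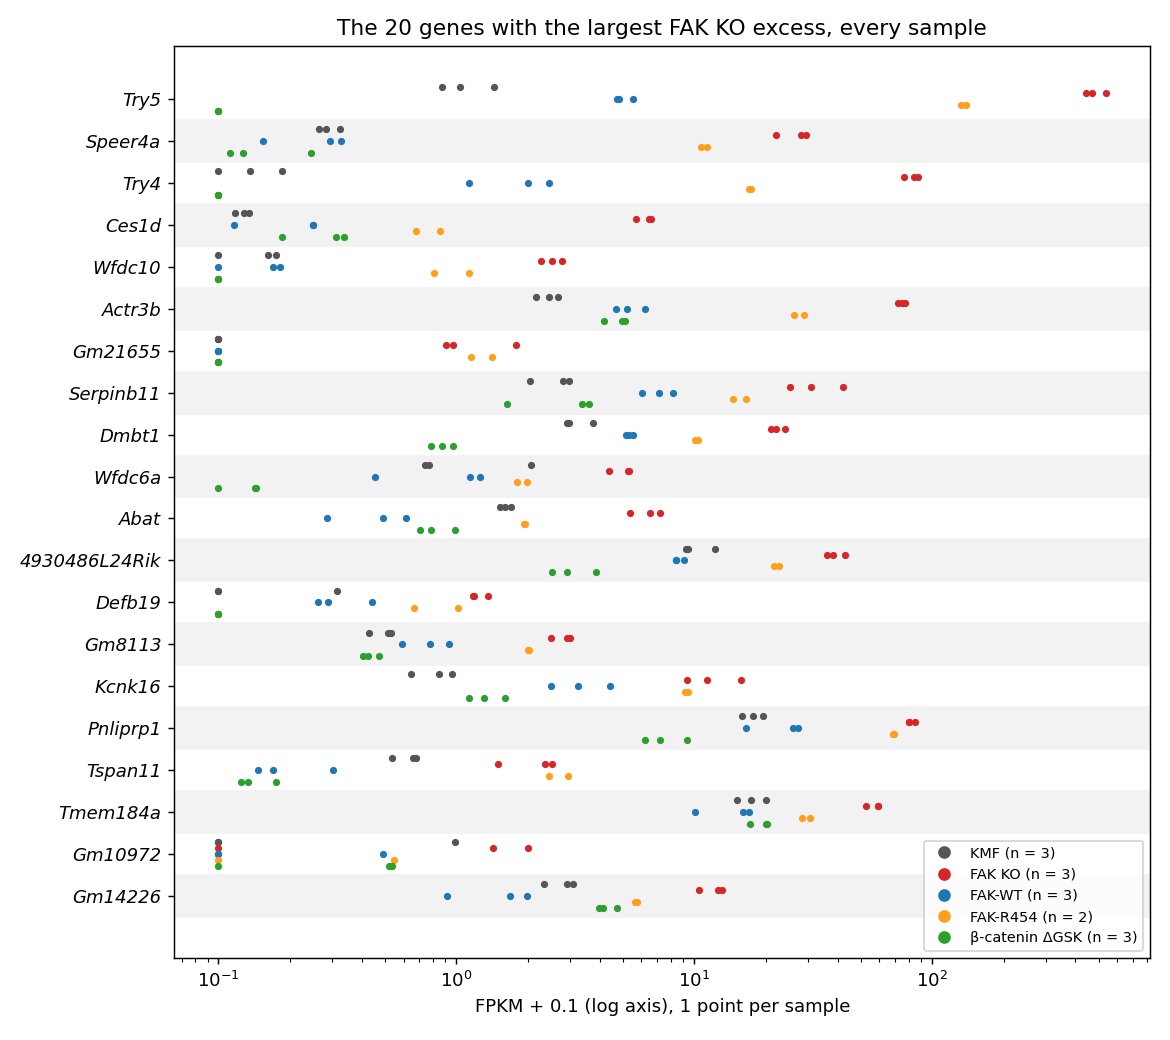
FPKM plus 0.1 on a log axis in every sample of the 20 genes with the largest ratio of FAK KO to the highest of KMF, FAK-WT and β-catenin ΔGSK, 1 point per sample. Try5 runs from 0.1 (listed at 0) in β-catenin ΔGSK to 538 FPKM in FAK KO, and the orange FAK-R454 points lie between the red FAK KO points and the others in most rows, with Tspan11 and Gm21655 among the exceptions.

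The first comparison asked whether the kinase-inactive protein, put back into the same clone, lowered these genes. It was made with limma on log2(FPKM + 0.1), and a gene was called when the Benjamini-Hochberg adjusted p over all 12256 genes tested was under 0.05, the change at least 1 on the log2 scale, and the mean above 1 FPKM in the higher line. All 59 genes were tested. Of them 22 were called lower in FAK-R454 than in FAK KO cells and 0 higher, and with a pseudocount of 1 in place of 0.1 the number lower was 11. Over all genes tested, 0.775% were called lower and 1.84% higher. At any fold, with the same limits on p and FPKM, 45 of the 59 were lower and 1 was higher, where 8.62% and 8.78% of all genes were. The median log2 change of the 59 was -0.79, beside -0.03 for all genes tested. The FAK KO samples that chose the genes for being high are the reference in this comparison, and only the FAK-R454 values are independent of the choice. The larger share lower among the 59 is therefore in part fixed by the choice.

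In 50 of the 59 genes both FAK-R454 samples lay below all 3 FAK KO samples, where 29.2% of all genes tested did. In 2, Vgll3 and Obp2a, both lay above, where 25.5% did. The larger share below is again in part fixed by the choice of genes high in FAK KO. The fall was largest for Ces1d, by 3.04 on the log2 scale (standard error 0.14, adjusted p = 1.3e-04 from limma). Try4 fell by 2.26 (standard error 0.07, adjusted p = 3.6e-05 from limma) and Gsta1 by 1.96 (standard error 0.06, adjusted p = 3.6e-05 from limma). Try5 fell by 1.83 and Cst8, a cystatin-family gene known from the epididymis, by 1.78, with adjusted p of 1.5e-04 and 3.5e-04 from limma. B020031M17Rik had a larger estimate than those of Gsta1, Try5 and Cst8, -2.06, with a standard error of 0.60, and was not called: its FAK-R454 samples had 0.545 and 0.0341 FPKM.

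At the other end, 5 genes had a FAK-R454 mean above the FAK KO mean. They were Vgll3, a cofactor of TEAD transcription factors, Tspan11, a tetraspanin, Obp2a, an odorant-binding lipocalin, Gm21655 and Gdf6, a bone morphogenetic protein. Vgll3 had 2.64 and 2.53 FPKM in FAK-R454 and 2.00, 1.70 and 1.87 in FAK KO samples. Its log2 change of 0.46 had an adjusted p of 0.043 from limma and was the 1 gene higher at any fold. Gdf6 had 14.6 FPKM in each FAK-R454 sample, inside the 12.5 to 15.5 of the FAK KO samples, and its log2 change was 0.05 with a standard error of 0.10. Cck, which encodes the gut hormone cholecystokinin, overlapped as well, at 23.7 and 20.1 FPKM in FAK-R454 and 21.3 to 26.4 in FAK KO samples.

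The second comparison set the kinase-inactive against the wild-type protein. FAK-R454 cells had 22 of the 59 genes called higher than FAK-WT cells and 0 lower, where 0.726% of all genes tested were called higher and 0.669% lower. The FAK-WT samples, like those of KMF and β-catenin ΔGSK cells below, had been used to choose genes that were low in them, so in these 3 comparisons too only the FAK-R454 values are independent, and the larger share called among the 59 is in part fixed by the choice. At any fold 33 were higher and 0 lower, where 4.12% and 3.15% of all genes were. The median log2 change of the 59 was 0.88, beside 0.04 for all genes. Both FAK-R454 samples lay above all 3 FAK-WT samples in 48 of the 59, where 31.3% of all genes tested did. The number called rests on having both FAK-R454 libraries: without FAK-R454 replicate 1 or without FAK-R454 replicate 2 limma called 1 gene higher in each case, while all genes called fell from 89 to 3, and the median of the 59 was 0.91 in both. Without FAK-WT replicate 2 it was 14, and with no filter on low values it was 10.

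Speer4a had the largest difference from FAK-WT cells, 5.48 on the log2 scale (standard error 0.34, adjusted p = 0.0032 from limma), and Try5 followed with 4.75 (standard error 0.08, adjusted p = 3.1e-05 from limma). Tspan11 was 3.78 higher in FAK-R454 than in FAK-WT cells, with 2.35 and 2.86 FPKM against 0.0474, 0.0703 and 0.203. Cck was 2.51 higher, with 3.67, 2.72 and 5.30 FPKM in the FAK-WT samples. Actr3b was 2.36 higher, Abat, the transaminase that breaks down GABA, 2.13 higher, and Vgll3 2.11 higher, each called. Not every gene separated the constructs. Gsta1 had 35.1 and 35.0 FPKM in FAK-R454 and 40.8, 37.0 and 39.4 in FAK-WT samples, a log2 change of -0.15 (adjusted p = 0.14 from limma). Ptpru, a receptor tyrosine phosphatase, had a change of -0.01, with a standard error of 0.13.

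Against the parental line, which has its own FAK, 33 of the 59 were called higher in FAK-R454 cells and 0 lower, where 4.15% of all genes tested were called higher and 2.42% lower. The median log2 change was 1.35, beside 0.01. At any fold 43 were higher and 1, Gsta1, was lower, where 21.6% and 20.3% of all genes were. Against β-catenin ΔGSK cells, 35 were called higher and 0 lower, where 6.97% and 4.09% of all genes were, and the median was 2.06, beside 0.06. Under the alternative settings given below, that median ran from 0.91 to 2.37. At any fold 41 were higher and 1, Cst8, was lower, where 26.7% and 20.5% were. These comparisons use the same FAK-R454 libraries. Together, 16 of the 59 were called higher in FAK-R454 than in each of FAK-WT, KMF and β-catenin ΔGSK cells, and 5 of these were also called lower than in FAK KO cells: Try5, Speer4a, Try4, Actr3b and Serpinb11. Of all genes tested 0.351% met the first set of calls and 0.0408% both, and the choice of the 59 favours such genes. In 44 of the 59 both FAK-R454 samples lay above every sample of the 3 lines, where 8.78% of all genes tested did. In 36 they lay above those and below every FAK KO sample. Over all genes 2.44% did, but the choice of the 59 already set FAK KO apart from the 3 lines, and only where such a gap exists can a sample lie in it, so the 2 shares are not read against each other. No call was made in any of the 4 comparisons for 7 genes, Defb19, Gm10972, Plcb4, B020031M17Rik, Rangrf, Serpinb3b and C1rb, where none was made for 84.4% of all genes tested. Defb19, Serpinb3b, Rangrf and C1rb were 3.03, 2.91, 2.03 and 1.33 higher than in β-catenin ΔGSK cells. They passed the limits on p and fold there but not the limit on FPKM. The FAK-R454 mean was under 1 FPKM for 12 of the 59, which therefore could not be called higher.

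**Figure D3:**
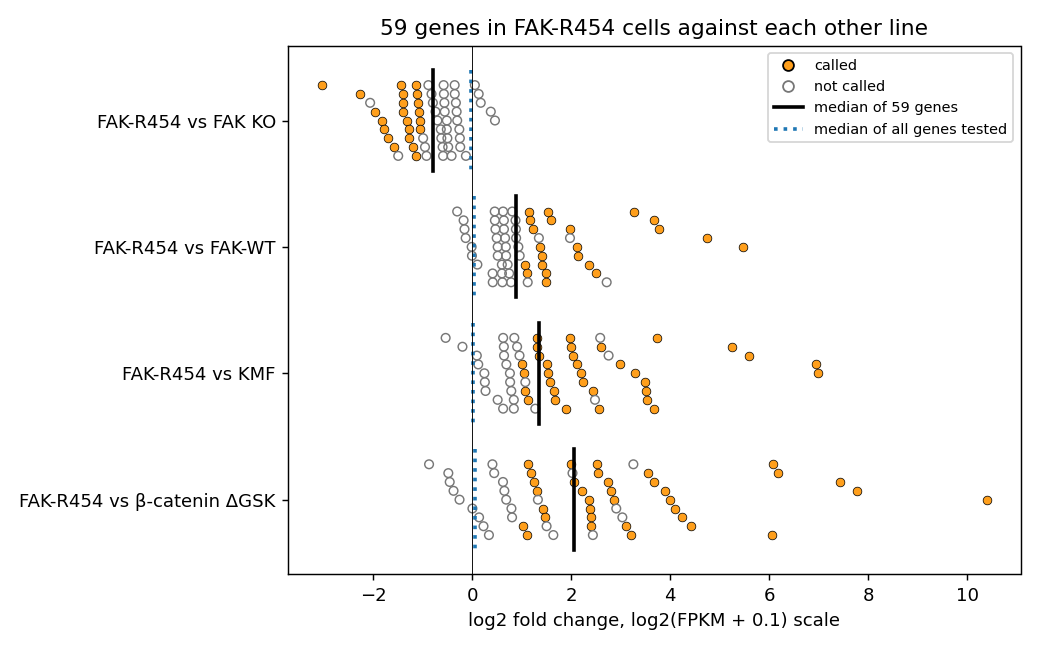
Each point is 1 of the 59 genes, placed by its limma log2 fold change between FAK-R454 (n = 2) and each other line (n = 3), filled where called. The black line is the median of the 59 genes (-0.79, 0.88, 1.35 and 2.06 from top to bottom) and the dotted line that of all genes tested, which stays between -0.03 and 0.06.

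Placed on the distance between the highest of the 3 low lines (0%) and FAK KO (100%), the FAK-R454 mean lay at a median of 33.4%, with quartiles of 12.2% and 57.7%. It lay between these ends for 44 genes, above FAK KO for 5 and at or below the highest other line for 10. In 24 of the 59 it was no more than 50% of the FAK KO mean with 0.1 FPKM added to both, the form in which the percentages of FAK KO below are given. The genes that did not exceed the highest other line included Gsta1, Cst8, Prl2c2, Prl2c3, Ptpru and Muc2. Gsta1, a glutathione S-transferase of detoxification, had 139, 129 and 143 FPKM in FAK KO samples and 35.0 to 52.3 FPKM in every other sample of the study. It shares 80.6% of its 100-base stretches with other genes, most with Gm3776.

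The genes were also grouped by kind of product, with the values known. The counts called in each group are a description, to be set beside 22 of the 59 lower than in FAK KO and 22, 33 and 35 higher than in FAK-WT, KMF and β-catenin ΔGSK cells, where 0.775%, 0.726%, 4.15% and 6.97% of all genes were. The 9 digestive enzymes, mucins and mucosal products had a median FAK-R454 level of 54.0% of FAK KO. Of them 4 were called lower than in FAK KO cells, namely Try4, Try5, Dmbt1 and Muc2, and 5 higher than in FAK-WT cells. Pnliprp1, a relative of pancreatic lipase, had 84.5, 80.1 and 79.7 FPKM in FAK KO and 68.7 and 69.1 in FAK-R454 samples, against 27.3, 25.9 and 16.4 in FAK-WT, 17.5, 19.3 and 15.8 in KMF and 7.09, 9.22 and 6.13 in β-catenin ΔGSK samples. It was called higher in FAK-R454 than in each of the last 3 lines, by 1.60, 1.97 and 3.21 on the log2 scale. Gcnt3, a glycosyltransferase that branches mucin-type glycans, was at 18.2 ± 1.56 FPKM in FAK KO, 9.78 ± 0.133 in FAK-R454, 0.475 ± 0.0317 in β-catenin ΔGSK and 3.66 ± 0.467 in FAK-WT cells (SD, n = 3, 2, 3 and 3). KMF was its highest other line, at 8.17 ± 0.283 FPKM (SD, n = 3), and the difference of FAK-R454 from it, 0.26 on the log2 scale, was not called.

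A cluster of 4 secreted gel-forming mucin genes lies on chromosome 7, and 2 of them were among the 59. Muc5b had 313, 355 and 338 FPKM in FAK KO and 271 and 268 in FAK-R454 samples, 124 to 197 in KMF, 128 to 178 in FAK-WT and 40.1 to 60.2 in β-catenin ΔGSK samples. Muc2, the main intestinal mucin, had 7.55, 8.11 and 9.29 FPKM in FAK KO and 3.78 and 3.86 in FAK-R454 samples, and was called lower in FAK-R454 cells. Muc5ac, the mucin gene between them, was not among the 59. It had 217 ± 18.8 FPKM in FAK KO and 200.1 ± 30.9 in KMF cells (SD, n = 3 each), but 67.0 and 60.0 FPKM in the FAK-R454 samples, which overlapped the 48.6 to 63.2 of FAK-WT samples, and 16.6 to 21.5 in β-catenin ΔGSK samples. Muc6, the remaining one, did not exceed 0.0727 FPKM in any sample.

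Of 14 digestive proteases and inhibitors on a fixed list, Try4 and Try5 were among the 59, and 5 were abundant enough to test. The pancreatic genes Prss1, Prss2, Ctrb1 and Cpa1 had means of at most 0.148 FPKM in any line. Prss3 and Try10 had their highest means in FAK KO cells, at 0.799 and 0.239 FPKM, and Cela2a in FAK-R454 cells, at 0.301. Cela1, an elastase, was lower in FAK KO, with a mean of 16.4 FPKM, and in FAK-R454, with 19.5, than in KMF, with 68.2, and in FAK-WT cells, with 41.0, while its β-catenin ΔGSK mean, 9.50, was the lowest. Of 17 antioxidant and detoxification genes listed, Gsta1 alone was among the 59. In FAK-R454 against FAK KO cells 2 of the 16 tested were called lower and 0 higher, and 10 were lower at any fold, where 0.775% of all genes were called lower and 8.62% lower at any fold. The remaining 12 lists, which covered cytokines, interferon response, Wnt inhibitors, matrix, p53 and other programs, held none of the 59, and Sost was not on the Wnt inhibitor list as fixed. Of these lists extracellular matrix had the most calls in this comparison, with 11 of 19 tested called higher and 0 lower, where 1.84% of all genes were called higher.

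The 6 genes of protease inhibitor families had a median FAK-R454 level of 42.9% of FAK KO, and 4 were called lower than in FAK KO cells, where 0.775% of all genes were: Serpinb11, Wfdc6a, Wfdc10 and Cst8. The WAP-domain genes Wfdc6a and Wfdc10 are neighbours on chromosome 2. Wfdc10 had 2.68, 2.42 and 2.18 FPKM in FAK KO and 0.706 and 1.03 in FAK-R454 samples, and no sample of the other lines exceeded 0.0812. Itih2, a heavy chain of the inter-α-trypsin inhibitor family, had 4.97 and 4.69 FPKM in FAK-R454 samples, between 6.94 to 7.51 in FAK KO and 1.86 to 3.16 in FAK-WT samples.

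All 5 genes of secreted signals had their lowest mean in β-catenin ΔGSK cells, and all 5 were called higher in FAK-R454 than in KMF and than in β-catenin ΔGSK cells, where 4.15% and 6.97% of all genes were, but the genes had been chosen for low values in both. Cck was at 24.0, 26.4 and 21.3 FPKM in FAK KO, 8.84, 7.37 and 9.47 in KMF and 0 in the 3 β-catenin ΔGSK samples, at least 452-fold below FAK KO. Gdf6 was at 0.0770 to 0.156 FPKM in β-catenin ΔGSK samples and 1.33 to 1.47 in KMF samples. Sost, whose product sclerostin binds LRP co-receptors and inhibits Wnt signalling, was at 2.11, 2.54 and 2.32 FPKM in FAK KO, 1.71 and 1.51 in FAK-R454 and 0.0171 to 0.172 in β-catenin ΔGSK samples. The placental-type prolactin relatives Prl2c2 and Prl2c3 were called lower in FAK-R454 than in FAK KO cells, by 1.06 and 1.32, while against FAK-WT cells their samples overlapped, with 3.71 and 4.46 FPKM of Prl2c2 in FAK-R454 and 3.17 to 4.84 in FAK-WT samples. These neighbours share 56.9% and 44.7% of their 100-base stretches with other genes.

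The 13 channels, transporters and membrane proteins, of the cell surface or of organelles, had a median FAK-R454 level of 67.1% of FAK KO, and 2, Ptpru and the nucleotide receptor P2ry4, were called lower than in FAK KO cells. Cd36, a scavenger receptor that takes up fatty acids, was at 21.9, 15.2 and 16.3 FPKM in FAK KO, 9.32 and 11.0 in FAK-R454 and 7.15, 5.90 and 6.77 in FAK-WT samples, and at most 0.238 FPKM in any KMF or β-catenin ΔGSK sample. Kcnk16, a background potassium channel, had 9.30 and 9.02 FPKM in FAK-R454 and 9.22 to 15.6 in FAK KO samples, which overlap, and was called 1.49 higher than in FAK-WT cells. Tmem184a fell short of the call against FAK KO, at -0.95 with an adjusted p of 5.8e-04 from limma. Trpm4, a calcium-activated cation channel, was the gene nearest the threshold of choice, at 2.003 times its β-catenin ΔGSK mean, followed by Vgll3 at 2.010 and Obp2a at 2.011. Just outside stood Maged2 at 1.997, Mboat2 at 1.979 and Cdh10 at 1.975.

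The 5 metabolic and signalling enzymes kept least in FAK-R454 cells, at a median of 30.6% of FAK KO, and Ces1d, Abat and Gsta1 were called lower. Abat had 6.40, 5.24 and 7.06 FPKM in FAK KO and 1.84 and 1.83 in FAK-R454 samples, close to the 1.42 to 1.59 of KMF and above the 0.185 to 0.513 of FAK-WT samples. Hs6st2, a heparan sulfate sulfotransferase, had 12.9 and 13.5 FPKM in FAK-R454 samples and was called 1.49 higher than in FAK-WT cells. Of the 5 genes of cytoskeleton, polarity and trafficking, Actr3b, the GTPase regulator Tbc1d9 and the tubulin ligase family member Ttll10 were called lower than in FAK KO cells. Among genes of little known role, 4930486L24Rik had 43.0, 38.2 and 36.2 FPKM in FAK KO and 22.6 and 21.5 in FAK-R454 samples, and 87.8% of its 100-base stretches occur in other genes. Gm21655 had 0.808, 1.68 and 0.869 FPKM in FAK KO and 1.05 and 1.31 in FAK-R454 samples and was at 0 in the other 9 samples. Those values rest on 10, 18 and 10 fragments in FAK KO and 12 and 17 in FAK-R454 libraries, and 60.1% of its 100-base stretches occur in other genes. Speer4a, Gm14226 and D6Ertd527e were called lower than in FAK KO cells, and Gm8113 had a log2 change of -0.48.

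**Figure D4:**
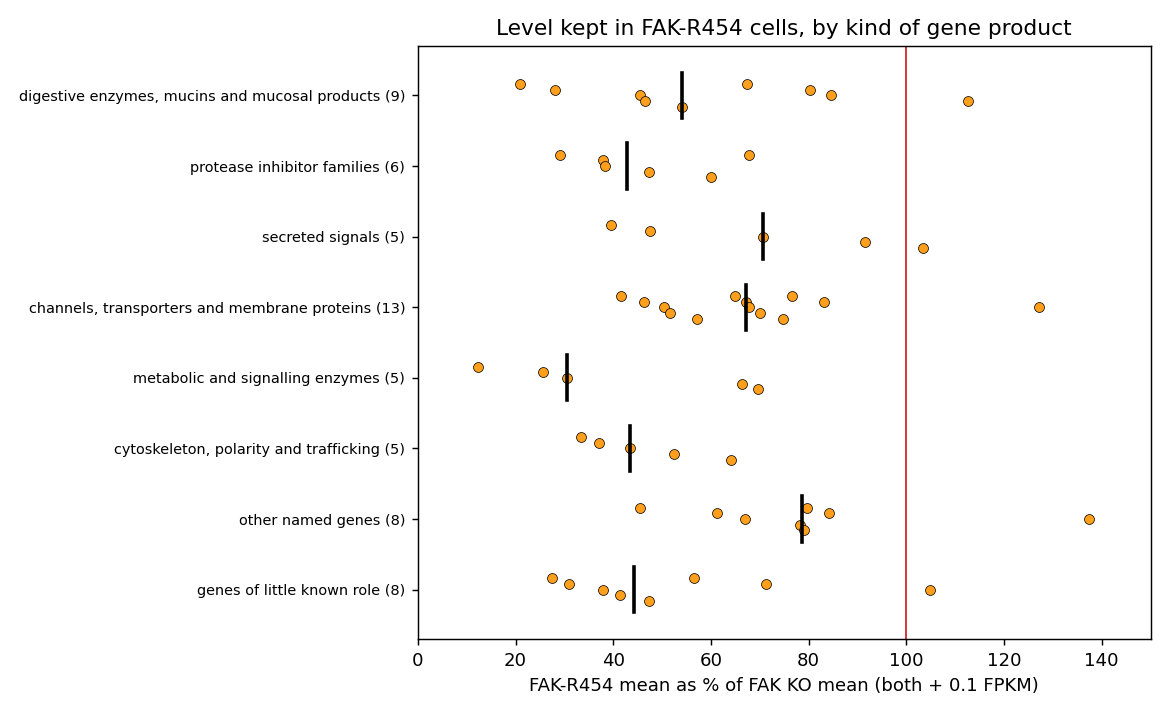
FAK-R454 mean as a percentage of the FAK KO mean, both plus 0.1 FPKM, for each of the 59 genes grouped by kind of product, with the number of genes in parentheses and the median as a black line. Medians run from 30.6% for metabolic and signalling enzymes to 78.6% for other named genes, single genes from 12.2% for Ces1d to 137% for Vgll3, and the red line marks the FAK KO level.

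Chromosome 6 held 10 of them, 16.9%, where it holds 4.87% of protein-coding genes above 1 FPKM in FAK KO cells, and chromosome 2 held 9, 15.3%, against 8.02%. Of the 59, 15 lay within 1 Mb of another, in 7 groups: Serpinb3b and Serpinb11, Slc25a35 and Rangrf, Prl2c3 and Prl2c2, Wfdc6a and Wfdc10, Actr3b with Gm21655 and Speer4a, Try4 and Try5, and Muc2 and Muc5b. Slc25a35 and Rangrf overlap, and the library kit does not mark strand, so their fragments cannot be told apart in the overlap. The median log2 difference of chromosome 6 genes, relative to that of all other genes, was 0.30 between FAK KO and KMF, 0.09 between FAK KO and FAK-WT and 0.08 between FAK KO and β-catenin ΔGSK cells. For chromosome 2 it was 0.05, 0.11 and -0.04, for chromosome 5, which held 5 of the 59, 0.13, 0.05 and 0.24, and for chromosome 18, which held 3, 0.34, 0.30 and 0.29. Between FAK KO and FAK-R454 cells it was -0.0067 for chromosome 6, 0.09 for chromosome 2, 0.14 for chromosome 5 and 0.11 for chromosome 18. Chromosome copies were not measured here, and clone KT13 was derived once, so a difference of the clone and an effect of FAK loss cannot be told apart from the FAK KO and KMF libraries alone. With each chromosome centred on its median in each sample, 52 genes passed the rule, 46 of them the same.

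Neighbours were then examined at both segments with the largest excess, which were picked with their values known. Only genes that reached 0.3 FPKM in some sample were kept. On chromosome 5, 8 further Speer4-like genes beside Speer4a gave 383, 289 and 292 fragments in all in the FAK KO libraries and 151 and 174 in the FAK-R454 libraries. They gave 1 to 9 fragments in every library of the other 3 lines. Xrcc2, a DNA repair gene next to Actr3b on its other side, stayed between 3.93 and 5.25 FPKM in all 14 samples, with means of 4.99 in FAK KO and 4.68 in FAK-R454 cells. On chromosome 6, the 3 trypsin-like genes Prss3, Gm5771 and Gm10334 gave 44, 33 and 39 fragments in FAK KO and 9 and 23 in FAK-R454 libraries, and at most 1 in any other library. The Speer4-like and trypsin-like genes reached 0.3 FPKM only in FAK KO or FAK-R454 samples. Their contrast with the other 3 lines is therefore in part fixed by that filter and carries no test. Speer4a shares sequence with 15 other genes, and most with Gm21671, which is among the 8 Speer4-like genes. Try5 shares sequence only with Try4, and Try4 with 2 genes, Try5 among them. The part of misassigned fragments was not tested. The coordinates of Gm21655 in the table (chromosome 5, 25923498 to 25926215) differ from those of the same identifier in GENCODE vM21 (15577333 to 15582078), while the other 58 overlap, so its place among these neighbours is uncertain.

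**Figure D5:**
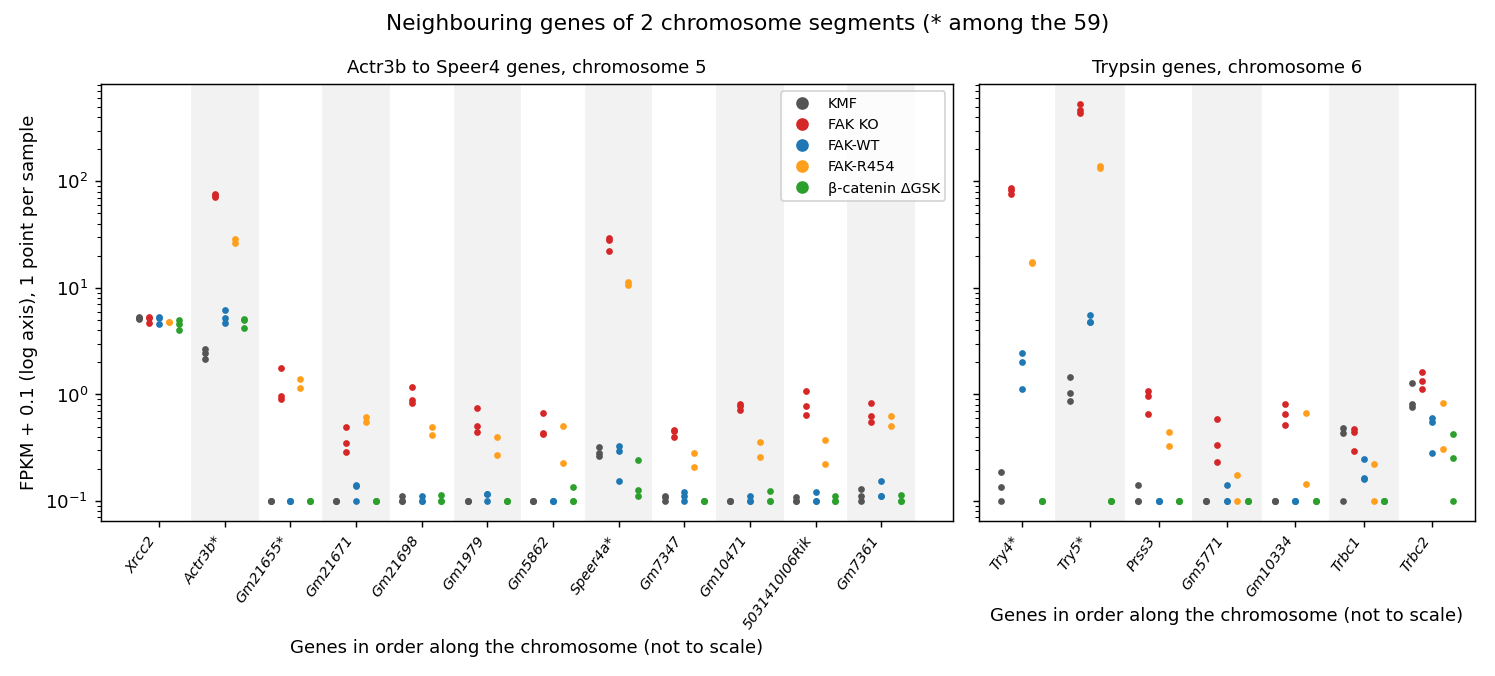
FPKM plus 0.1 on a log axis in every sample for the genes of both segments that reached 0.3 FPKM in some sample. Genes are in chromosome order and not to scale, with an asterisk on those among the 59. In the left panel Xrcc2 stays near 5 FPKM in all lines while Actr3b and Speer4a are high in FAK KO (red) and intermediate in FAK-R454 (orange), and in the right panel Try4 and Try5 show the same order.

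Promoter windows were then searched for motifs. RefSeq promoters (250 bases before to 50 after the start, build GRCm38.p6) were matched by symbol for 37 of the 59 genes. The TCF/LEF core, CTTTGAT or CTTTGAA on either strand, was found in 0 of the 37, where 7.78% of 17491 protein-coding promoters held one. The AP-1 letters TGANTCA were found in 5, 13.5%, against 7.05% of all, the E-box CACGTG in 2, 5.41%, against 7.75%, and the TATA box TATAAA in 4, 10.8%, against 13.3%. A match describes these letters only, and their absence from a window says nothing about a factor. Stretches of the windows of 3 genes with a large FAK KO excess are printed 5′ to 3′ on the strand of the gene, with matches in capitals. In Try4 (chr6:41302172-41302271, plus strand) the TATA box begins at position -31 from the start. Speer4a (chr5:26039506-26039605, minus strand) held none of the motifs. Serpinb11 (chr1:107362064-107362313, plus strand) held a pair of AP-1 matches, at -181 and -76 from the RefSeq start, and this window lies inside the gene as the table gives it, which begins at 107361198.
Try4: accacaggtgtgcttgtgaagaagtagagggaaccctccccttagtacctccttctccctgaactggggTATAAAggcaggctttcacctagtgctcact
Speer4a: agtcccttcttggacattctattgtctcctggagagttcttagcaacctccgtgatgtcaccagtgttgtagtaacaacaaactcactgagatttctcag
Serpinb11: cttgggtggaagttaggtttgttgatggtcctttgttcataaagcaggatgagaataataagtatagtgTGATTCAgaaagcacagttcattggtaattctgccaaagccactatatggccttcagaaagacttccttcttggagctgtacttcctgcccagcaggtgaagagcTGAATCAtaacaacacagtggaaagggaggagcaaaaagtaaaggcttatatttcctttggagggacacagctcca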

How the data were processed

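RNA of tumorsphere cultures was sequenced by the authors from poly(A)-selected libraries, paired-end, with a kit that does not mark strand. They deposited 1 table of FPKM per gene and sample. Their methods name TopHat2 for mapping, whereas the submitters' processing notes list STAR 2.5, CASAVA 1.8, DESeq2 and mm10, so the aligner is uncertain. FPKM was used as deposited. Times gene length, the FPKM of a library were whole multiples (within 0.01) of its lowest nonzero value for 99.9% of nonzero values, so fragments and depth were recovered.

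Pairs of lines were compared with limma 3.58.1 (lmFit, eBayes with trend, R 4.3.3) on log2(FPKM + 0.1), which understates the change of low genes. The 12256 genes with a mean above 1 FPKM in at least 1 of the 5 lines were tested, and p-values were adjusted over all of them. On simulated data for FAK-R454 against FAK KO (12256 genes, 50 changed by each fold) 49, 50, 46 and 49 genes changed 2-, 4-, 0.5- and 0.25-fold passed the adjusted p threshold, as did 4 unchanged genes. The simulation gave every gene the same spread between samples and applied no limit on fold. The other comparisons were not simulated, so it says nothing about their calls. Alternatives changed the pseudocount, filter, scaling, chromosome centring, fold, fit (5 lines, replicate block, limma-voom on recovered fragments) and samples. Shared sequence was counted as 100-base stretches in GENCODE vM21 transcripts. The methods describe 1 more FAK-R454 sample, which was not analysed here.

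The named genes were the 20 with the largest FAK KO excess, the 10 most abundant, the 6 lowest and 6 highest in FAK-R454 against FAK KO, those on any list, and those nearest the threshold. Muc5ac, Xrcc2 and other genes outside this rule were chosen after their values were seen. The 59 genes and the gene lists were chosen with earlier results of these data known.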

Additional observations from a re-analysis of the deposited data

How the results depend on the processing

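The number of genes passing the rule was 32 with a pseudocount of 1, 196 at a fold of 1.5, 17 at a fold of 3, 35 above 5 FPKM, and 30 when the lowest FAK KO sample had to exceed the highest other sample by the same fold. Leaving out 1 sample at a time gave 53 to 63. Members called lower in FAK-R454 than in FAK KO cells numbered 11 with a pseudocount of 1, and 45 at any fold, where 1 was higher. Members called higher than in FAK-WT cells numbered 10 with no filter on low values, 33 at any fold, and 1 to 20 with 1 sample left out. At any fold 1 gene was lower than in KMF (Gsta1) and 1 lower than in β-catenin ΔGSK cells (Cst8). The cause of these shifts was not tested.

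The members' median ran from -0.86 to -0.64 against FAK KO, 0.62 to 0.96 against FAK-WT, 0.95 to 1.57 against KMF and 0.91 to 2.37 against β-catenin ΔGSK cells. Sample numbers are shared between lines but mark no common origin in the labels, and deviations of same-numbered samples correlated between -0.08 and 0.06. With the number as a replicate block, which leaves the third sample of the other line without a partner, 23 members were called lower than FAK KO and 20 higher than FAK-WT.

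For 29 named genes in 4 comparisons, 1595 of 1725 alternative values kept direction and call, 85 lost and 28 gained it, and 17 changed sign, none of them called. With 1 sample left out, log2 changes ran from -0.046 to 0.44 for Gm21655 and -0.032 to 0.12 for Gdf6 against FAK KO. Those of B020031M17Rik ran from -1.44 to 0.83 against FAK-WT, -0.44 to 1.82 against KMF and -2.003 to 0.26 against β-catenin ΔGSK, and those of Gm10972 from -0.77 to 1.68, -1.10 to 1.35 and -1.599 to 0.85. Gm10972 was also at -0.039 against KMF with a pseudocount of 1, and with the replicate block at -0.43 against KMF and 0.013 against β-catenin ΔGSK.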

Other observations

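Among genes that are not protein-coding, 14 passed the same thresholds, 7 of them pseudogenes, 3 lincRNAs, 3 processed transcripts and 1 antisense transcript. Gm15391, a lincRNA that lies beyond the end of Serpinb11 on chromosome 1, had the largest excess, 6.09 times its highest other line. Its mean was 2.97 FPKM in FAK KO, 1.90 in FAK-R454, 0.404 in FAK-WT, 0.349 in KMF and 0.134 in β-catenin ΔGSK cells. Gm13230, Gm13223 and Smarca5-ps lie within a short stretch of chromosome 4, and their FAK KO means were 23.1, 2.30 and 1.02 FPKM against 9.77, 0.896 and 0.154 in FAK-R454 cells. Their KMF means were 11.48, 0.830 and 0.340 FPKM, their FAK-WT means 7.08, 0.479 and 0.173 and their β-catenin ΔGSK means 3.22, 0.265 and 0.0584, so the FAK-R454 mean lay below that of KMF for Gm13230 and below those of KMF and FAK-WT for Smarca5-ps.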
